A study of Mus musculus with 136 samples.

Results

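Il1b encodes interleukin-1 beta, a secreted cytokine that drives fever and inflammation. It is 1 of 15196 genes in the deposited table of mouse macrophage RNA and was chosen by its name in the gene column. Its value was followed across every genotype, stimulus, time and RNA fraction, in 136 libraries. The table names the transcript NM_008361, at chr2:129190313-129196875 in the mm9 build, a span of 6.56 kb.

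Macrophages make interleukin-1 beta as an inactive precursor after pattern receptors such as TLR4, which senses lipid A, switch on the gene. A caspase within the inflammasome then cuts the precursor, and the mature cytokine leaves through gasdermin D pores to act on the IL-1 receptor of other cells. Transcription of the gene in macrophages is known to draw on PU.1, C/EBP proteins and NF-kB. In the NF-kB family, Nfkb1 encodes p105 and its product p50, while Nfkbiz, Nfkbid and Bcl3 encode nuclear IkB proteins that bind p50.

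The cells were macrophages that grew out of bone marrow over 6 days with 8% M-CSF, from wild-type (C57/B16), Nfkb1-/-, Nfkbiz-/-, Bcl3-/- or Nfkbid-/- mice, per the labels. Each knockout series had its own wild type and 5 times of lipid A (0, 0.5, 1, 2 and 6 h), with 3 replicates per group for Nfkb1 and Nfkbid (30 libraries each) and 2 for Nfkbiz and Bcl3 (20 each). Chromatin-associated RNA, largely nascent transcripts, was read in these series, in 8 libraries of wild-type cells pretreated with an ERK inhibitor or DMSO, and in 5 of wild-type cells given TNFa. Polyadenylated RNA was read in wild-type cells given lipid A or TNFa (9 libraries), in cells overexpressing IkBz and their control (6), and in cells labelled J2 (8: Nfkb1-/- Nfkb2-/-, Nfkb1-/- and wild type). The series' stated questions were how p50 and each nuclear IkB act during macrophage activation, whether p50 and p52 stand in for each other, and how IkBz responds to and acts under each stimulus. What J2 denotes, how IkBz was expressed and how many animals stand behind the replicates are not given in the sources used here, so the p-values measure the spread between these libraries.

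Values are RPKM, read counts scaled to gene length and library size. Depth, recovered from the steps between values, was 7860000 to 45300000 reads in the 113 chromatin libraries (median 28800000), lowest in replicate 1 of the Nfkb1 series, and 14900000 to 63000000 reads in the J2 and overexpression libraries. The sum of 5 macrophage markers was 19.6 to 197 RPKM in the 103 chromatin libraries outside replicate 1 of the Nfkbid series, where none of the 6 lists for other cell types summed above 1.46 RPKM. Replicate 1 of the Nfkbid series stood apart in both genotypes: its 10 libraries held 6.92 to 19.4 RPKM of the nuclear RNA Malat1, against 823 to 1640 RPKM in replicates 2 and 3, and its 8 neutrophil and granulocyte markers summed to 19.95 to 66.9 RPKM. Its 5 macrophage markers summed to 1141 to 5206 RPKM, and the nuclear RNAs Malat1, Rmrp and Neat1 to 23.7 to 89.9 RPKM. In the 23 polyadenylated libraries the 8 neutrophil and granulocyte markers summed to 0.854 to 263 RPKM. There the 5 macrophage markers summed to 3107 to 16950 RPKM and the 3 nuclear RNAs to 61.3 to 546 RPKM. Results that rest on replicate 1 of the Nfkbid series are given with and without it where it moves them. RNA of the targeted gene was not lost in the Nfkb1 and Bcl3 series. In the former Nfkb1 had 0.703 to 21.3 RPKM in libraries labelled Nfkb1-/- and 1.33 to 24.0 RPKM in wild type. At 0 h Bcl3 had 8.79 and 8.89 RPKM in libraries labelled Bcl3-/-, against 2.21 and 2.66 RPKM in wild type. In J2 cells Nfkb1 was lower at 2 h, with 40.4 RPKM in the Nfkb1-/- library, against 145 RPKM in wild type. The Nfkb1-/- Nfkb2-/- libraries had 37.4 and 32.1 RPKM then. At 0 h Nfkb1 had 21.9 RPKM in Nfkb1-/-, 14.6 and 12.4 RPKM in Nfkb1-/- Nfkb2-/- and 22.8 RPKM in wild type. The chromatin values cover whole gene spans and the labels do not say which part was deleted. These levels are therefore no check of the genotypes, which are taken from the labels. The RNA of Nfkbiz and of Nfkbid is not analysed here.

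The promoter is shown first because NF-kB, C/EBP and PU.1 are the factors described at this gene, beside that of Il1a, its neighbour and closest relative in pattern. Both are the 250 bases before the annotated start, 5′ to 3′ on the minus strand of GRCm38.p6, from RefSeq: Il1b at chr2:129371140-129371389 and Il1a at chr2:129309973-129310222. Capitals mark matches to the motifs searched on either strand. For C/EBP factors the letters were TTGNNNAA, for PU.1 they were GAGGAA and for the TATA box TATAAA. For AP-1 they were TGANTCA, and for factors that bind the cyclic AMP element (CRE) they were TGACGTCA. The NF-kB motif was GGG, any 5 bases and CC, and the interferon element (ISRE) was a pair of GAAA with any 2 bases between them.
Il1b: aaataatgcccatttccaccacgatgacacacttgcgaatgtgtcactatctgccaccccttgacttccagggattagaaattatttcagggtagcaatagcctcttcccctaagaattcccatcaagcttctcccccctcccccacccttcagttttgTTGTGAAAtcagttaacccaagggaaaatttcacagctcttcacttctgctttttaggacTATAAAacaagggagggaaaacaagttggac
Il1a: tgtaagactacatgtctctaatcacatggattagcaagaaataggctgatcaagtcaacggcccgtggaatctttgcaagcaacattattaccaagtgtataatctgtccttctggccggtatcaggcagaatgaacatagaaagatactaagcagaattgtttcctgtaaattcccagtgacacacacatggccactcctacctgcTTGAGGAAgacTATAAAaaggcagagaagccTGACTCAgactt

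In the Il1b window a C/EBP match (TTGTGAAA) lay 91 to 84 bases before the start and TATAAA lay 31 to 26 bases before it. In the Il1a window the C/EBP letters (43 to 36) overlapped GAGGAA (41 to 36), TATAAA lay at 32 to 27 and TGACTCA at 12 to 6. Of 32851 RefSeq promoters of the same length, 33.3% held the C/EBP letters, 12.4% TATAAA, 23.3% GAGGAA and 6.75% TGANTCA. The NF-kB letters, held by 45.8% of promoters, were in neither window, nor were those of CRE (1.55%) and ISRE (2.98%). That says only that these letters are not in these windows.

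In GRCm38 the main transcript of Il1b has 7 exons with 1356 bases in all, so most of its span is intronic. The antisense gene Il1bos covers 1239 bases, or 18.9%, of the Il1b span, and reads there may be counted for either gene. In the stimulated libraries Il1bos held a median of 1.31% of the Il1b reads in the Nfkb1 series and 0.151% in the ERK inhibitor series, against 14.1%, 14.5% and 13.5% in the Bcl3, Nfkbid and Nfkbiz series. Likewise Gm14023, which overlaps 79.3% of Il1a, had a median of 0.0475 times the Il1a level in the Nfkb1 series and 0.01 times in the ERK inhibitor series, against 0.843 to 0.873 times in the other 3. The strand rule of the counting is not given, and its part in these values was not tested. Il1b and Il1a are therefore compared between genotypes within a series, and levels set across series are given as values with no test. The exception is the difference between the Nfkb1 and Nfkbiz effects, which was tested across those series.

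Lipid A raised Il1b in wild-type chromatin RNA within 0.5 h, and the gene stayed above its 0 h level through 6 h, with lower medians at 2 and 6 h than at 0.5 and 1 h. In the 10 wild-type libraries the lowest, median and highest values were 0.0317, 0.0768 and 0.942 RPKM at 0 h, and 12.6, 45.5 and 97.4 RPKM at 0.5 h. They were 13.1, 42.7 and 338 RPKM at 1 h, 9.18, 16.3 and 258 RPKM at 2 h, and 2.14, 8.66 and 123 RPKM at 6 h. No stimulated library overlapped the unstimulated ones. The highest library at 4 of the 5 times, by far, was replicate 1 of the Nfkbid series, and at 0.5 h it was the highest by a small margin. Without it the means from 0 to 6 h were 0.0731 ± 0.0339, 46.1 ± 27.0, 40.2 ± 22.4, 14.4 ± 3.74 and 11.3 ± 8.46 RPKM (SD, n = 9). Within a course, the 0.5 h level was 103 to 1864 times the 0 h level over all 10, and at least 209.7 times it without replicate 1 of the Nfkbid series. The 0 h levels rest on few reads, 7 to 25 of Il1b in these 9 libraries.

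On the scale log2(RPKM + 0.5), Il1b stood 6.09, 6.12, 4.94 and 4.26 (SE 0.49) above its 0 h level from 0.5 to 6 h, with adjusted p of 5.48e-14, 2.79e-14, 8.65e-12 and 6.78e-10 by limma over 4260 genes. A gene counts as changed here when its adjusted p is below 0.05 and its difference at least 2-fold. By that rule 6.17%, 7.0%, 10.6% and 9.65% of genes were higher over the same times (16.4%, 17.9%, 20% and 14.9% lower), and Il1b had the 3rd, 2nd, 15th and 20th largest rise. The median gene shifted by -0.48, -0.36, -0.40 and -0.33. An exact permutation test of the Il1b values, exchanging times within series, gave p = 0.000139 at each time, the smallest it can give.

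Between neighbouring times, 0.5 and 1 h did not separate (difference 0.03, 95% interval -0.97 to 1.03, adjusted p = 0.973, limma, where 4.15% of genes rose). The difference from 1 to 2 h was -1.19 (interval -2.18 to -0.19), with an adjusted p of 0.0596 by limma, where 5.94% of genes fell. The labels do not say that the replicate numbers pair the libraries, but they were taken to do so. With a term for each series and replicate number, the same difference had an adjusted p of 0.00285 (limma) and 6.15% of genes fell at that step. Without replicate 1 of the Nfkbid series, and with no such term, it was -1.27 (adjusted p = 0.00118, limma, where 7.12% fell). From 2 to 6 h the difference was -0.68 (adjusted p = 0.362, limma), where 2.93% of genes fell. Of the 10 wild-type courses, each a series and replicate number, 5 were highest at 0.5 h, 4 at 1 h and 1 at 6 h. The median course held 46.4% of its 0.5 h level at 2 h and 19.6% at 6 h. In rank, 23 to 190 genes reached or passed Il1b at 0.5 h and 63 to 1512 at 6 h, against 4064 to 9027 at 0 h (7172 to 9027 without replicate 1 of the Nfkbid series).

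**Figure D1:**
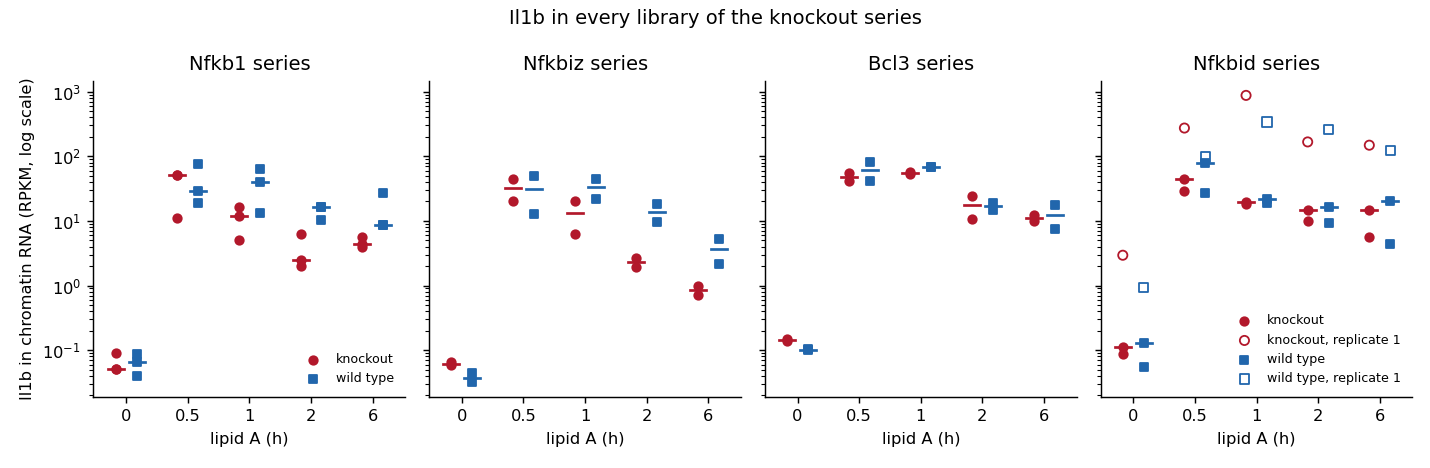
Il1b in each library of the 4 knockout series (RPKM, log scale) against hours of lipid A, with knockout circles left of wild-type squares. Short bars are medians over all libraries of a group, filled and open symbols alike. Open symbols are replicate 1 of the Nfkbid series, which reached 875 RPKM in knockout and 338 RPKM in wild type at 1 h.

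Macrophages labelled Nfkb1-/- overlapped wild type in Il1b at 0 and 0.5 h of lipid A and held less of it at 2 and 6 h. The comparison asks what p50 and p105 contribute, and in such bulk RNA fewer cells with the transcript and less of it per cell cannot be told apart. At 0 h they had 0.0505, 0.0907 and 0.0513 RPKM in replicates 1 to 3, against 0.0887, 0.0400 and 0.0649 RPKM in wild type. At 0.5 h they had 11.3, 51.1 and 51.2 RPKM, against 18.7, 74.6 and 28.8 RPKM. The genotypes overlapped at both times, with fitted differences of -0.00 and -0.14 (95% interval at 0.5 h -1.38 to 1.10).

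From 1 h on, all 9 pairs of the same replicate number were lower in the libraries labelled Nfkb1-/-. At 1 h these held 5.15, 16.6 and 11.8 RPKM, against 13.1, 62.5 and 40.4 RPKM in wild type. At 2 h they held 2.04, 2.44 and 6.18 RPKM, against 16.4, 10.2 and 16.4 RPKM. At 6 h they held 4.43, 5.56 and 3.94 RPKM, against 27.3, 8.76 and 8.56 RPKM. The genotypes did not overlap at 2 and 6 h, while at 1 h the highest knockout library exceeded the lowest wild-type one. Of all genes tested in this series, 51.3%, 66.35% and 37.9% had a fitted difference below 0 at 1, 2 and 6 h. The share of all genes without overlap was not counted, so the lack of overlap is a description only. Within a pair the knockout held 26.5% to 39.3% of wild type at 1 h, 12.5% to 37.8% at 2 h and 16.2% to 63.5% at 6 h.

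The differences were -1.63, -1.98 and -1.38 at 1, 2 and 6 h (SE 0.60), among the 16, 10 and 19 lowest of 4523 genes. Without a term for the replicate they did not pass in limma (adjusted p = 0.591, 0.331 and 1, against 0.597%, 0.376% and 0.221% of genes that fell). With the replicate number as a block at each time, Il1b fell at all 3 times in limma (SE 0.33, adjusted p = 0.00469, 0.00120 and 0.0141), as did 1.44%, 1.46% and 0.906% of genes. The 95% intervals of that fit were -2.32 to -0.94, -2.67 to -1.28 and -2.07 to -0.69. With the block entered once for the series, the adjusted p were 0.154, 0.0685 and 0.273 (limma). These 3 times were chosen after the values were seen, so a test of their mean is a description only. An exact permutation test of that mean (-1.66) gave p = 0.0005 with labels exchanged within each time. With whole time courses exchanged it gave 0.1, the smallest that 3 against 3 allows.

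**Figure D2:**
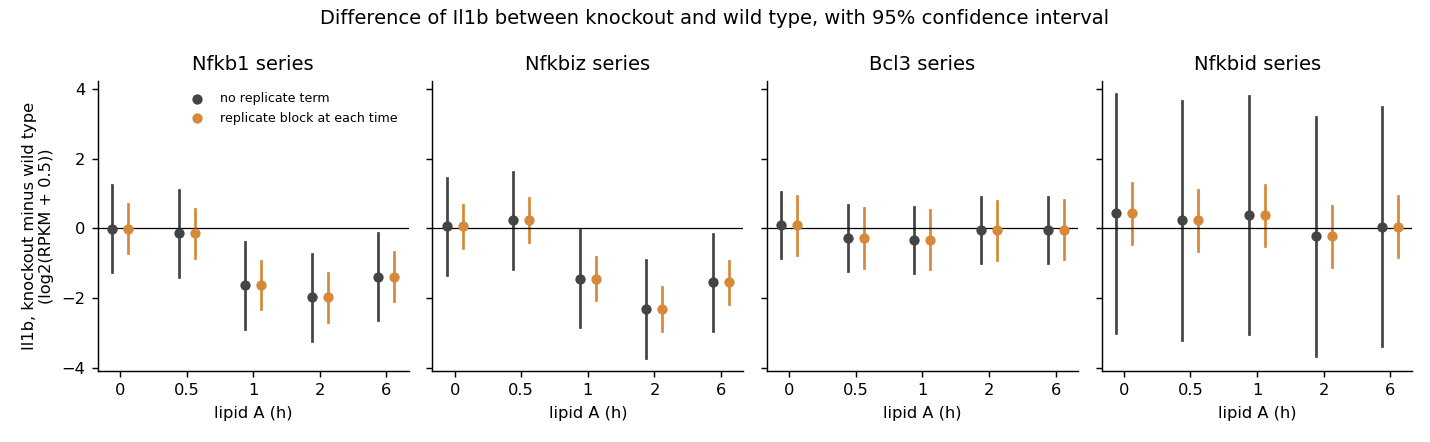
Fitted difference of Il1b, knockout minus wild type, on the log2(RPKM + 0.5) scale with 95% confidence intervals, against hours of lipid A. Dark points come from the fit without a replicate term and orange points from the fit with the replicate number as a block at each time. In the Nfkb1 and Nfkbiz series the orange intervals lie below 0 at 1, 2 and 6 h, and in the Bcl3 and Nfkbid series every interval spans 0.

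Libraries labelled Nfkbiz-/- also overlapped wild type at 0.5 h and lay below it at 1, 2 and 6 h. The product of Nfkbiz, IkBz, is itself induced by lipid A. They held 0.0580 and 0.0663 RPKM at 0 h, against 0.0437 and 0.0317 RPKM in wild type, and 44.4 and 20.2 RPKM at 0.5 h, against 50.3 and 12.6 RPKM. At 0.5 h the genotypes overlapped, and the difference was 0.24 (95% interval -1.15 to 1.63).

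At 1 h the knockout had 20.1 and 6.32 RPKM, against 45.0 and 22.2 RPKM in wild type. At 2 h it had 2.62 and 1.94 RPKM, against 17.95 and 9.60 RPKM. At 6 h it had 0.981 and 0.703 RPKM, against 5.25 and 2.14 RPKM. The genotypes overlapped at none of these 3 times, and all 6 pairs were lower in the knockout. Of all genes tested in this series, 64.2%, 66% and 73.55% had a fitted difference below 0 at these times. The share of all genes without overlap was not counted, so the lack of overlap is a description only. At 2 h the knockout held 14.6% and 20.2% of the wild type of the same replicate number.

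The differences were -1.44, -2.31 and -1.55 (SE 0.65) and ranked 24th, 8th and 52nd lowest of 4885 genes. Without a replicate term limma gave adjusted p of 0.413, 0.0756 and 0.0980, beside 0.553%, 1.19% and 3.62% of genes that fell. With the block at each time Il1b fell at all 3 times in limma (adjusted p = 0.0259, 0.00225 and 0.00431), as did 0.983%, 1.74% and 4.07% of genes. The intervals were -2.06 to -0.82, -2.93 to -1.69 and -2.17 to -0.92. With the block once for the series the adjusted p were 0.0860, 0.00417 and 0.0138 (limma), and 1.72% and 4.07% of genes fell at 2 and 6 h. The exact permutation test of the 3-time mean (-1.76), over times chosen after the values were seen, reached the smallest p it allows. That was 0.00926 within times and 0.333 over whole courses.

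Each course can also be set against its own 0.5 h level. At 2 h the courses labelled Nfkb1-/- held 4.78% to 18% of their 0.5 h level, against 13.6% to 87.5% in wild type. The courses labelled Nfkbiz-/- held 5.91% and 9.60%, against 35.7% and 76.3%. The change from 0.5 to 2 h differed between genotypes by -2.55 ± 0.91 in the Nfkbiz series (adjusted p = 0.473 in limma, where 0.307% of genes were lower, and 0.0161 with the block at each time, where 1.23% were). In the Nfkb1 series it differed by -1.83 ± 0.85 (adjusted p = 0.9995 in limma, where 0.133% were lower, and 0.0530 with the block, where 0.951% were). All 5 courses of these knockouts were highest at 0.5 h, as were 2 of the 5 wild-type courses beside them.

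A difference in size between the Nfkb1 and Nfkbiz effects on Il1b did not pass the test. These series differ in the share of reads counted for Il1bos, and its part here was not tested. Nfkb1 effect minus Nfkbiz effect was -0.07, -0.38, -0.19, 0.33 and 0.17 from 0 to 6 h (SE 1.70 in the limma fit of all 4 series), with a 95% interval of -3.07 to 3.73 at 2 h. The SE rests on all 4 series, and it was 0.88 without replicate 1 of the Nfkbid series and 0.59 with the block at each time, where the 2 h difference had adjusted p of 0.9999 and 0.959 (limma).

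Libraries labelled Bcl3-/- did not lie to the same side of wild type throughout. Bcl3 encodes a nuclear IkB that binds p50 and p52 dimers. They held 0.148 and 0.138 RPKM at 0 h, against 0.104 and 0.10 RPKM, and 55.4 and 41.4 RPKM at 0.5 h, against 82.1 and 40.8 RPKM. At 1 h they held 56.7 and 53.5 RPKM, against 69.4 and 68.3 RPKM, lower in both pairs. At 2 h they held 10.8 and 24.0 RPKM, against 18.9 and 14.7 RPKM, and at 6 h 9.93 and 12.5 RPKM, against 17.4 and 7.38 RPKM. The fitted differences were 0.09, -0.27, -0.32, -0.05 and -0.03 (SE 0.45). The 95% interval at 2 h, -0.995 to 0.898, leaves out the point estimates of the Nfkb1 and Nfkbiz series at that time, but a difference between series was not tested there. Over all genes of this series, 0% passed in limma in either direction at any time, while 7 to 86 were lower and 9 to 29 higher at an unadjusted p below 0.05, whatever their size.

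In the Nfkbid series replicate 1 set the spread. Its libraries labelled Nfkbid-/- held 2.94, 273, 875, 167 and 148 RPKM at 0, 0.5, 1, 2 and 6 h, against 0.942, 97.4, 338, 258 and 123 RPKM in wild type. Replicates 2 and 3 labelled Nfkbid-/- held 43.8 and 28.5 RPKM at 0.5 h, against 79.8 and 27.2 RPKM. At 1 h they held 19.7 and 18.1 RPKM, against 21.6 and 19.3 RPKM, and at 2 h 9.81 and 14.7 RPKM, against 9.18 and 16.2 RPKM. At 6 h they held 5.65 and 14.9 RPKM, against 4.35 and 20.3 RPKM.

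With all 3 replicates the differences were 0.43, 0.23, 0.38, -0.22 and 0.06 from 0 to 6 h, with an SE of 1.65. With replicates 2 and 3 alone, the mean over 1, 2 and 6 h differed by -0.06 (exact permutation p = 0.796). Here too 0% of genes passed in limma in either direction at any time, and 0 to 2 genes were lower and 0 to 1 higher at an unadjusted p below 0.05, whatever their size. The interval at 2 h, -3.64 to 3.19, is too wide to set a limit near the sizes seen in the Nfkb1 and Nfkbiz series.

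Il1a lies 54.6 kb from Il1b on the same strand and encodes interleukin-1 alpha, which acts on the same receptor. In wild type it rose with Il1b, by 2.84, 2.96, 2.57 and 1.81 from 0.5 to 6 h (adjusted p of at most 9.48e-07, limma). In libraries labelled Nfkbiz-/- Il1a did not pass at any time. At 2 h Il1a had 2.00 and 2.21 RPKM in the knockout, against 1.56 and 1.96 RPKM in wild type, a difference of 0.21 (95% interval with the block at each time -0.23 to 0.65). The ratio of Il1b to Il1a at 2 h was 0.970 and 1.18 in the knockout, against 6.16 and 9.16 in wild type.

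In libraries labelled Nfkb1-/- both ligands were low at 2 h. Il1a had 0.369 to 1.41 RPKM there, against 2.16 to 4.23 RPKM in wild type, a difference of -1.34 (adjusted p = 0.493 in limma, and 0.000184 with the block at each time). Il1b relative to Il1a, averaged over 1, 2 and 6 h, differed by -0.85 in the Nfkb1 series (exact permutation within times, p = 0.0015) and by -1.84 in the Nfkbiz series (p = 0.00926, the smallest possible, by the same exact test). It differed by 0.03 in the Bcl3 series (p = 0.861) and by 0.14 in the Nfkbid series (p = 0.792), by the same exact test, or by 0.05 there without replicate 1 (p = 0.796). With whole time courses exchanged, the exact p was 0.1 in the Nfkb1 series and 0.333 in the Nfkbiz series, the smallest those designs allow. In the Nfkb1 series the genotypes overlapped in this ratio at 1, 2 and 6 h. At 2 h it was 3.18 to 5.53 in the knockout there, against 3.87 to 7.34 in wild type. In the Nfkbiz series they overlapped at 6 h, with 1.09 and 4.28 in the knockout, against 3.58 and 7.29 in wild type. The Nfkb1 and Nfkbiz effects on Il1a itself differed by -1.55 at 2 h (adjusted p = 1 in limma, where 0.0327% of genes were lower, and 0.0283 with the block at each time, where 0.752% were). These series count Gm14023 differently, at a median of 0.0475 and 0.843 times Il1a, and the part of that in this difference was not tested. Gm14023, which overlaps Il1a, differed by 0.15 at 2 h in the Nfkbiz series (adjusted p = 0.932, limma), and its part in these ratios was not tested.

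**Figure D3:**
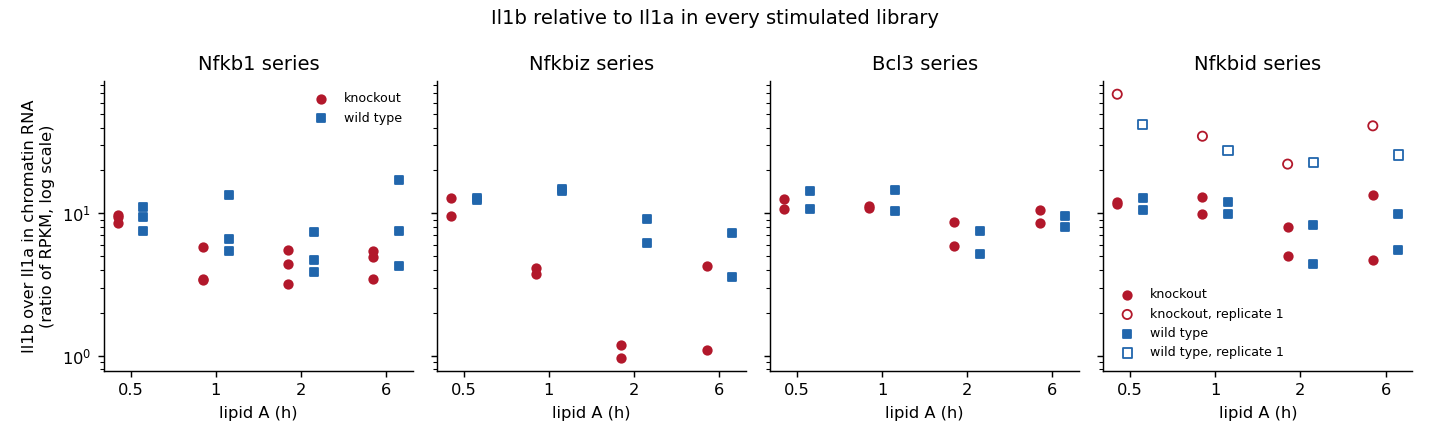
Ratio of Il1b to Il1a RPKM in every stimulated chromatin library of the knockout series (log scale) against hours of lipid A, knockout circles left of wild-type squares. At 2 h the libraries labelled Nfkbiz-/- lie at 0.970 and 1.18, below their wild type at 6.16 and 9.16, while the Nfkb1 and the Bcl3 genotypes overlap. At 6 h the Nfkbiz genotypes overlap as well.

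The other genes of the locus were antisense partners or weakly expressed. Counts of Il1bos rose with those of Il1b in wild type (2.87, 2.94, 2.15 and 1.5 at the 4 times, adjusted p of at most 0.00083, limma), as did those of Gm14023 (1.85, 1.91, 1.67 and 1.13). This fit pools series that differ in the share counted for these antisense genes. In wild type of the Nfkb1 series Gm14023 had 0.0556, 0.0973 and 0.0703 RPKM at 0 h. At 0.5 h it had 0.132, 0.364 and 0.104 RPKM there. The part of reads from Il1b and Il1a in these rises was not tested. In libraries labelled Nfkbiz-/- Il1bos differed by -1.62 at 2 h (adjusted p = 0.141, limma). Ckap2l, a spindle gene 67.4 kb away, was lower at 6 h in wild type (-1.03, adjusted p = 0.000355, limma) and passed at no earlier time. With a pseudocount of 1, libraries centred on their median or no Nfkbid series, Ckap2l stayed within 2-fold (-0.96 to -0.69), and Gm14023 at 6 h fell within 2-fold without replicate 1 of the Nfkbid series (0.90). Stk35os1, Tgm3 and AU015228, the nearest genes on the other side at 427 to 729 kb, had at most 0.976 RPKM in any wild-type chromatin library of these series.

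TNFa, a cytokine that also activates NF-kB, came with far lower Il1b in chromatin RNA than lipid A did, with its highest value at 0.5 h. The comparison asks which responses depend on the stimulus. The 5 libraries, with no replicates, held 0.00801 RPKM at 0 h (1 read), 2.16 at 0.5 h (332 reads), 0.0926 at 1 h (13 reads), 0.185 at 2 h (14 reads) and 0.0531 at 6 h (7 reads). Every wild-type lipid A library of the knockout series was higher at the same time, with at least 12.6 RPKM at 0.5 h and 9.18 RPKM at 2 h. The TNFa libraries form a series of their own, so stimulus and series cannot be told apart here. At 0.5 h Il1b was past 2-fold, as were 7.54% of genes, and it ranked 48th of 4391 in rise on the log2(RPKM + 0.5) scale.

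In polyadenylated RNA, TNFa and lipid A brought Il1b to similar levels at 0.5 h and then parted. Lipid A gave 112, 867, 525 and 839 RPKM at 0.5, 1, 2 and 6 h, and TNFa gave 146, 53.9, 4.89 and 1.23 RPKM, over 0.362 RPKM at 0 h. The ratio of lipid A to TNFa over these times was 0.768, 16.1, 107 and 683. The differences of -0.38, 4.0, 6.61 and 8.92 (log2) compare with medians of -0.03, -0.17, -0.19 and -0.31 over all genes. From 1 h on Il1b was past 2-fold in favour of lipid A, as were 4.62%, 6.21% and 9.60% of genes, and it ranked 17th, 3rd and 2nd. Each condition is 1 library, so no test was made, and the depth of these 9 libraries is unknown. The chromatin and polyadenylated libraries were scaled over different lengths, so their RPKM are not compared.

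**Figure D4:**
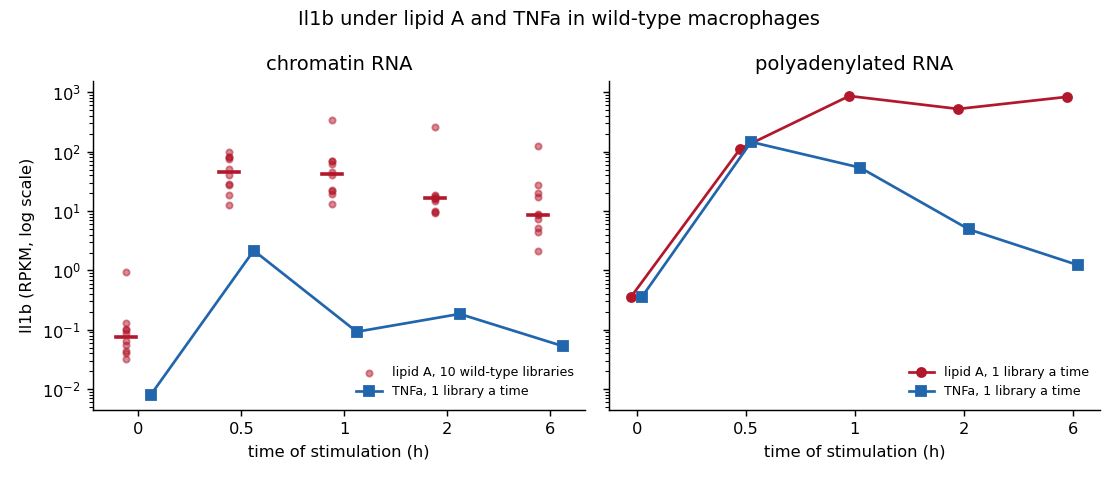
Il1b (RPKM, log scale) against hours of stimulation in wild-type macrophages. Left, chromatin RNA, with 10 lipid A libraries per time (bars are medians) and 1 TNFa library per time. Right, polyadenylated RNA with 1 library per point and the same unstimulated library at 0 h of both lines, where lipid A reached 839 RPKM at 6 h and TNFa 1.23 RPKM.

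Overexpression of IkBz did not come with more Il1b in stimulated cells. After lipid A for 2 h, cells overexpressing IkBz had 666 RPKM and control cells 1763 RPKM, a ratio of 0.378. After TNFa for 2 h they had 50.7 RPKM, against 77.8 RPKM in control cells (ratio 0.652). Without stimulus the order was the other way, 1.64 RPKM against 0.841 RPKM. With lipid A the log2 difference was -1.40, the 38th lowest of 6510 genes, where 1.74% were past 2-fold lower. Il1a moved alike, at 132 RPKM against 390 RPKM with lipid A. There was 1 library per condition and no test.

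With ERK inhibitor pretreatment Il1b was above the DMSO control at 15 min of lipid A and below it at 30 and 60 min, by less than 2-fold each time. ERK is a kinase of the MAP kinase cascade that p105 helps to control through the kinase TPL2. The inhibitor libraries held 0.203, 26.7, 62.4 and 60.5 RPKM at 0, 15, 30 and 60 min, against 0.330, 20.1, 73.7 and 99.8 RPKM with DMSO. At 60 min the ratio was 0.606 (log2 difference -0.72), the 224th lowest of 3409 genes, and 3.43% of genes were past 2-fold in that direction. Il1a at 60 min was past it, at 4.18 RPKM with the inhibitor and 15.9 RPKM with DMSO. These are single libraries, with no test.

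In J2 cells Il1b was far higher after 2 h of lipid A than before it in every genotype, and lowest there in the double knockout. The comparison asks whether p50 and p52 stand in for each other. The Nfkb1-/- Nfkb2-/- libraries held 113 and 129 RPKM at 2 h, against 0.875 and 0.228 RPKM at 0 h. The Nfkb1-/- library held 285 RPKM at 2 h, against 0.271 RPKM at 0 h, and the wild-type library 300 RPKM, against 0.0968 RPKM. The difference was 6.92 ± 0.36 in the double knockout (adjusted p = 0.0312, limma, where 0.233% of genes rose). In Nfkb1-/- and wild type, 1 library against 1, it was 8.53 and 8.98, given with no test because any spread in the fit comes from the double knockout. Bcl3 RNA differed as well: the double knockout libraries held 0.143 and 0.0386 RPKM at 0 h and 0.0949 and 0.119 RPKM at 2 h. The Nfkb1-/- libraries had 3.58 and 20.1 RPKM of Bcl3 at these times and wild type 4.99 and 27.5 RPKM. The part of this difference in the Il1b values was not tested.

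At 2 h the double knockout stood -1.31 ± 0.44 from wild type (95% interval -2.51 to -0.11, adjusted p = 0.868, limma) and -1.24 from Nfkb1-/- (adjusted p = 0.925, limma), each lone library being taken to vary like the double knockout. In both comparisons 0% of genes passed in limma in either direction, while 200 to 225 were lower and 118 to 137 higher at an unadjusted p below 0.05, whatever their size. Nfkb1-/- stood -0.07 from wild type, 1 library against 1 with no test. Il1a at 2 h overlapped between genotypes, at 58.0 and 131 RPKM in the double knockout, against 123 RPKM in Nfkb1-/- and 118 RPKM in wild type.

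**Figure D5:**
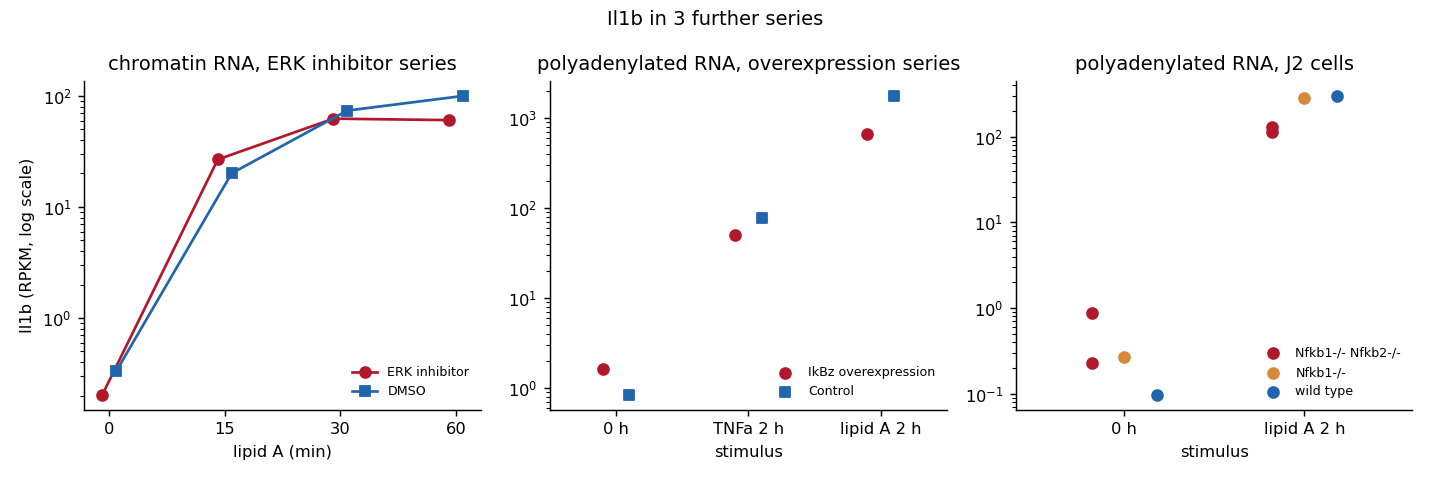
Il1b (RPKM, log scale) in the ERK inhibitor, IkBz overexpression and J2 series, each point 1 library. The inhibitor lay below DMSO at 60 min (60.5 and 99.8 RPKM), IkBz overexpression below control after lipid A (666 and 1763 RPKM), and the J2 double knockout (113 and 129 RPKM) below the other genotypes at 2 h.

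Other genes of the IL-1 pathway were followed by lists. The list of ligands has 5 of 10 genes in the table. Il1f6, Il1f8 and Il1f9, which encode IL-36 cytokines, stayed at or below 0.462 RPKM in every chromatin library and 2.34 RPKM in polyadenylated RNA, and did not pass the filter. Genes of antagonists (Il1rn among them) and Nlrp3 were not analysed here.

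Of 6 receptor and signalling genes tested in wild type, Irak2, a kinase of the IL-1 and Toll-like receptor complex, was higher at all 4 times (1.79 at 0.5 h, adjusted p = 8.6e-08, limma). Myd88, the shared adaptor, was higher at 2 h (1.61) and 6 h (1.38), with adjusted p of 0.0592 and 0.107 without the Nfkb1 series (limma). Irak4, another kinase of the receptor complex, was lower at 1 h (-1.12) and Tollip, an inhibitor of the pathway, at 2 h (-1.06). Both were within 2-fold (-0.72 and -0.67) once libraries were centred on their median. The list's median was 0.03, 0.20, 0.26 and -0.23 at the 4 times, against -0.48 to -0.33 over all genes.

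Of 6 inflammasome and release genes tested, 3 were higher at 2 h, as were 10.6% of all genes: Casp1, the caspase that cuts the precursor (2.20, adjusted p = 6.53e-08, limma), Aim2, a DNA sensor (1.59), and Gsdmd, the pore former (1.29). Nlrp1b, another sensor, was lower at 1, 2 and 6 h (-1.94 at 2 h), though within 2-fold at 1 h once centred (-0.78). At 0.5 h Ninj1 was higher (1.54), as were 6.17% of genes, and Pycard was lower (-1.44), as were 16.4%. The Pycard call was lost in 4 of 12 alternatives. Between 1 and 2 h, when Il1b differed by -1.19, Casp1 (1.75), Gsdmd (1.34) and Aim2 (1.38) rose, as did 7.58% of genes. The list's median at that step was 1.32, against -0.03 over all genes.

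Of 8 transcription factors tested that are described at the Il1b promoter, 6 were higher at 0.5 h, as were 6.17% of all genes: Rela, Rel and Nfkb1 of NF-kB, and Fos, Junb and Atf3 of the AP-1 and ATF families. Their list had a median of 1.75, against -0.48 over all genes. Fos (-2.13), Jun (-2.20) and Atf3 (-1.35) fell again from 0.5 to 1 h, where 3.31% of genes fell and Il1b did not separate. Cebpd, the gene of a C/EBP factor, was higher at 2 h (1.13, or 0.96 without replicate 1 of the Nfkbid series) and 6 h (1.21). Of 7 genes for RNA-binding proteins that act on cytokine mRNA, Zfp36 (3.47) and Zc3h12a (1.26) were higher at 0.5 h, as were 6.17% of all genes. Zfp36l2 (-1.92) was lower at that time, as were 16.4%.

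In the knockouts these lists held few changes. In libraries labelled Nfkbiz-/- Cebpd was lower at the times when Il1b was, by -1.46, -1.70 and -2.40 at 1, 2 and 6 h (adjusted p = 0.00316, 0.000425 and 5.22e-06, limma). The Cebpd call at 1 h was lost without knockout replicate 1 or 2 or wild-type replicate 1 (adjusted p of 0.137, 0.0546 and 0.146, limma), and that at 2 h without knockout replicate 1 (0.0783). Nfkbia, the NF-kB inhibitor gene, was lower at 2 h (-1.35) and 6 h (-1.31), and at 2 h it did not pass without knockout replicate 1 or either wild-type replicate (adjusted p of 0.0933, 0.162 and 0.066, limma), nor at 6 h without wild-type replicate 1 (0.0672). The other calls at 6 h rested on single libraries: Pycard, the inflammasome adaptor, was lower (-1.22), and Zfp36l1 and Zfp36l2 were higher (1.08 and 1.13, where 1.84% of genes were higher). Pycard did not pass without knockout replicate 1 or 2 or wild-type replicate 1 (adjusted p of 0.133, 0.221 and 0.152, limma). Without knockout replicate 1 Zfp36l1 was within 2-fold (0.75) and Zfp36l2 did not pass (adjusted p = 0.126, limma), and neither passed without wild-type replicate 2 (0.0556 and 0.123). Zfp36l1 was also lost when the first wild-type library was left out (adjusted p = 0.129, limma). In libraries labelled Nfkb1-/- Fos was lower at 6 h (-1.45, adjusted p = 0.00464, limma), a call lost without knockout replicate 2 or wild-type replicate 1 or 3 (adjusted p of 0.105, 0.0760 and 0.169). With the block at each time, Zfp36, whose product tristetraprolin shortens cytokine mRNA, was also lower at 1 h (-1.04) and 6 h (-2.13), and Zc3h12a at 1 h (-1.16).

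The 10 genes most like Il1b over the 40 group means of the knockout series, by Pearson's r on log2(RPKM + 0.5), were Il1a (0.96), Nfkbia (0.95), Ccl4 (0.93), Ehd1 (0.93), Tnfaip2 (0.93), Dusp1 (0.92), Gm6377 (0.92), Dusp2 (0.91), Gadd45b (0.91) and Sdc4 (0.91). Over 4259 genes the median r was -0.25 and the 99th percentile 0.82. The means share their stimulus times and their libraries, so r is a description and carries no test. Without replicate 1 of the Nfkbid series 6 of the 10 were the same, with Il1a and Nfkbia again first. Ccl4 encodes a chemokine and Dusp1 and Dusp2 encode phosphatases of MAP kinases. The likeness was not equal in each genotype: at 2 h in libraries labelled Nfkbiz-/- the difference from wild type was -4.13 for Dusp1, -1.85 for Dusp2 and 0.08 for Ehd1, given here without a test because these libraries helped to choose the genes.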

How the data were processed

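The authors deposited a table of RPKM, read counts scaled to gene length and library size, for 15196 genes in 136 libraries. HISAT2, SAMtools and the mm9 build are named in the submitters' processing notes, without versions, and kits and growth per the labels' protocols. The steps between the deposited RPKM gave whole reads for 94.7% to 98.7% of low values in chromatin libraries (within 0.02 reads, up to 30 reads), from which depth was taken, and for 78.2% to 80.7% in the J2 and overexpression libraries. Chromatin values scaled over whole gene spans, polyadenylated ones over exons. The extraction text is the same for both kinds of library and describes chromatin RNA.

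Groups came from the labels. Genes at 1 RPKM or more in at least 10 wild-type libraries, or in 2 or 3 libraries in the other fits (the replicates per group), were fitted with limma 3.58.1 (R 4.3.3) on log2(RPKM + 0.5) with a mean-variance trend, once per knockout series, over the 50 wild-type libraries with the series as a term, and over the J2 libraries. The p-values were Benjamini-Hochberg adjusted over all genes of a fit, and a change needed an adjusted p below 0.05 and 2-fold. Single libraries are given as differences with no test. A pseudocount understates folds of low values, such as Il1b at 0 h.

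Knockout and wild-type libraries with the same replicate number deviated together from their group means, with r of 0.61 to 0.92 in the Nfkb1 series (15 pairs), 0.45 to 0.73 in Nfkbiz (10), 0.27 to 0.76 in Bcl3 (10) and 0.89 to 0.97 in Nfkbid (15). In Nfkbiz and Bcl3, with 2 replicates per group, both pairs of a time have the same r by construction. From these r the numbers in the labels were taken to pair the libraries. Fits with the number as a block are given beside those without where the call changes. The procedure was tested on simulated data. For a log2 change of 1.5 at 2 h it recovered 72% of changed genes in the Nfkb1 design and 88% in the Nfkbiz design, 70% in Bcl3 and 18% in Nfkbid. The simulated libraries had independent noise and were fitted without the block, so these shares do not describe the fits with the block. They are shares over genes of differing spread and give no rate for Il1b itself.

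Il1b, the gene lists and the tests were chosen with earlier results of these data known. Named are Il1b, members of the lists that pass, Il1a, targeted genes, the 3 genes on each side of Il1b and the 10 most like it. Alternatives were other pseudocounts, filters and scalings, the replicate block, and each replicate left out. Promoters came from RefSeq on GRCm38.p6, and coordinates of genes from the files on mm9.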

Additional observations from a re-analysis of the deposited data

Results flagged for a closer look

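Among the 10 wild-type libraries at each time, the highest and the lowest Il1b value were set against the gap expected in a group of that size (Dixon's 95% critical value, 0.466). Of the 10 ends examined, 4 exceeded it, and all 4 were replicate 1 of the Nfkbid series. It held 0.942 RPKM at 0 h (gap over range 0.893), 338 RPKM at 1 h (0.827), 258 RPKM at 2 h (0.961) and 123 RPKM at 6 h (0.792). Chance flags about 1 in 20 groups, and the 5 times share their courses. The same library set had 6.92 to 19.4 RPKM of Malat1, where the rest of its series had 823 to 1640 RPKM, and was high in macrophage markers (sum 1141 to 5206 RPKM, against 19.6 to 197 RPKM in the other chromatin libraries). The part of these differences in its Il1b values was not tested.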

How the results depend on the processing

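The rise of Il1b in wild type kept its direction and its call under every alternative run. The sign of the Nfkb1 and Nfkbiz differences at 1, 2 and 6 h was kept too, over 15 settings for Nfkb1 (-2.26 to -1.16 at 1 h, -2.41 to -1.71 at 2 h and -1.65 to -0.84 at 6 h) and 13 for Nfkbiz (-2.24 to -0.64, -2.74 to -1.87 and -2.11 to -0.98). Their calls depended on the replicate block: with the block at each time they passed at -1.63, -1.98 and -1.38 in the Nfkb1 series and at -1.44, -2.31 and -1.55 in the Nfkbiz series. With the block once for the series only the Nfkbiz values at 2 h (-2.31) and 6 h (-1.55) did. The block changed no call on Il1b in the Bcl3 and Nfkbid series.

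Of the 92 wild-type calls on list and locus genes other than Il1b, 70 held under every alternative run and 0 changed sign. The knockout calls on Cebpd, Nfkbia, Pycard, Zfp36l1, Zfp36l2 and Fos were lost with the spread shared by the 4 series (adjusted p of at least 0.740, limma). With each time fitted alone those on Fos, Pycard and Zfp36l2, on Cebpd at 1 h and on Nfkbia at 2 h were lost too, with a pseudocount of 1 those on Zfp36l1 (0.75) and Zfp36l2 (0.87), and with centring or no filter that on Pycard.

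The wild-type step from 1 to 2 h passed with a filter at 3 RPKM (-1.19, adjusted p = 0.0493, limma), with libraries centred on their median (-1.19, 0.0379), with the replicate block (-1.19, 0.00285), and with the block and no replicate 1 of the Nfkbid series (-1.27, 0.000754). With libraries or series left out it was -1.43 to -0.98. The step from 0.5 to 1 h turned to -0.037 with centred libraries and to -0.16 with the block and no replicate 1 of the Nfkbid series (-0.16 to 0.12 with libraries or series left out, and -0.041 without the Nfkbiz series). Centring also turned the Nfkb1 difference at 0 h to 0.12 and the Bcl3 difference at 2 h to 0.12. In the Nfkbid series the block without replicate 1 gave -0.40 at 0.5 h, -0.11 at 1 h and -0.048 at 6 h. The Nfkb1 effect minus the Nfkbiz effect at 6 h was -0.032 with a pseudocount of 1 and -0.13 with centring.

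With each replicate left out, differences that did not pass ranged across 0. They were -0.034 to 0.030 and -0.57 to 0.57 for Nfkb1 at 0 and 0.5 h, -0.74 to 1.22 for Nfkbiz at 0.5 h, and -0.77 to 0.23, -0.61 to 0.51 and -0.62 to 0.56 for Bcl3 at 0.5, 2 and 6 h. For Nfkbid they were -0.41 to 0.87, -0.75 to 0.87, -1.45 to 1.72, -1.47 to 1.22 and -1.26 to 1.26 from 0 to 6 h. The Nfkb1 effect minus the Nfkbiz effect was -1.36 to 0.60, -0.99 to 0.61, -0.10 to 0.77 and -0.39 to 0.73 from 0.5 to 6 h. Il1a in the Nfkbiz series at 1 h was -0.30 to 1.00.

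In J2 cells the double knockout rise was 7.74 and no longer passed with a pseudocount of 0.1, and 6.36 to 7.48 with either library left out, a value with no test. On the spread of the double knockout alone, which says nothing of variation in the other genotypes, the wild-type difference went past the threshold with a pseudocount of 1 (8.10), no filter (8.98) and a filter at 3 RPKM (8.98), and the Nfkb1-/- difference with a pseudocount of 1 (7.82) and no filter (8.53). Among single libraries, centring moved the ERK inhibitor difference at 60 min to -0.62. Lipid A over TNFa, with a pseudocount of 0.1, a pseudocount of 1 and centring, was -0.38, -0.38 and -0.35 at 0.5 h, 4.01, 3.98 and 4.13 at 1 h, 6.72, 6.48 and 6.79 at 2 h, and 9.30, 8.56 and 9.25 at 6 h. The cause of these changes was not tested. At 0 h, 1 to 626 reads of Il1b limit what folds over 0 h can show.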
